A study of Mus musculus with 35 samples.

Results

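Glucose enters a cell through facilitative carriers of the Slc2a family, is trapped by hexokinases and is split by the glycolytic enzymes to pyruvate. Lactate dehydrogenase reduces pyruvate to lactate, and proton-linked carriers of the Slc16a family move lactate across the membrane. Several of these genes are known targets of the hypoxia-inducible factors and of MYC, and growing blood progenitors and leukemic cells are known for high glycolytic flux. Described here are 10 genes of this route, chosen by symbol: the lactate carriers Slc16a1 (MCT1) and Slc16a3 (MCT4), the glucose carriers Slc2a1 (GLUT1) and Slc2a3 (GLUT3), the hexokinases Hk1 and Hk2, the platelet phosphofructokinase Pfkp, phosphoglycerate kinase Pgk1, pyruvate kinase Pkm and lactate dehydrogenase A, Ldha. They are 10 of the 49671 genes counted and of the 17166 genes tested, and all 10 passed the filter on low counts.

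Hematopoietic stem and progenitor cells depleted of lineage-marked cells (lin- HSPCs), from bone marrow of C57Bl/6 mice, were transduced with lentivirus, sorted for fluorescence and grown for 1 week in methylcellulose with 10 ng/mL of added GM-CSF, and RNA was taken from this first plating. There were 7 groups of 5 libraries, spelled here as in the labels. Empty carried the vector alone, and G-NHX9 carried the leukemia fusion NUP98-HOXA9 tagged with mEGFP. The fusion joins the disordered part of NUP98, rich in phenylalanine-glycine (FG) motifs, to the DNA-binding homeodomain of HOXA9. In G-NHX9-8FA part of the FG phenylalanines were changed to alanine, and in G-NHX9-21FGAA more FG pairs were changed to alanine pairs. G-NHX9-midi had a shortened NUP98 part without the GLEBS domain, G-NHX9-midi-21FGAA was the shortened form with its FG motifs removed, and G-NHX9-DDNA had a homeodomain mutated to weaken DNA binding. The fusions were expressed from a viral vector and not from the Nup98 locus, and no group was a leukemia. By the paper's methods, Empty cells were sorted for mCherry alone and fusion cells for both mCherry and mEGFP. In comparisons with Empty, this difference in sorting and the fusion cannot be told apart. The labels give an age of 8 weeks for 32 libraries, with Empty replicates 4 and 5 at 9 and 10 weeks and G-NHX9 replicate 1 at 11 weeks. No source used here says that replicates came from separate animals, so p-values measure the spread between these libraries, which may be technical.

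Libraries held 31559914 to 75810659 counts, and the 10 genes took 0.314% to 0.772% of a library. Levels are in CPM, which are counts relative to the TMM-scaled library size, and changes are log2 fold changes. They were tested by quasi-likelihood in edgeR, adjusted by Benjamini-Hochberg across every gene tested, with a threshold of 0.05. Hoxa9 was counted at 79.3 to 113 CPM in G-NHX9 and at 0.693 to 1.26 CPM in Empty. In G-NHX9-midi-21FGAA it was counted at 0.242 to 2.18 CPM, so it does not check the label of that group. Its levels in the other fusion groups are not given here, so their labels are not checked. Whether reads of the transgene can be counted on mouse Hoxa9 is not given in the sources used here.

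In GRCm38 (GENCODE M21), the lactate carriers are Slc16a1 (ENSMUSG00000032902.1) at chr3:104638668-104658462 on the plus strand and Slc16a3 (ENSMUSG00000025161.16) at chr11:120948480-120960868 on the plus strand. The glucose carriers are Slc2a1 (ENSMUSG00000028645.11) at chr4:119108711-119137983 on the plus strand and Slc2a3 (ENSMUSG00000003153.10) at chr6:122727809-122801640 on the minus strand. The hexokinases are Hk1 (ENSMUSG00000037012.18) at chr10:62268855-62379908 on the minus strand and Hk2 (ENSMUSG00000000628.10) at chr6:82725025-82774454 on the minus strand, and Pfkp (ENSMUSG00000021196.13) at chr13:6579768-6648777 on the minus strand follows them in the route. The later enzymes are Pgk1 (ENSMUSG00000062070.12) at chrX:106187100-106203699 on the plus strand, Pkm (ENSMUSG00000032294.17) at chr9:59656368-59679375 on the plus strand and Ldha (ENSMUSG00000063229.15) at chr7:46841475-46855627 on the plus strand.

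The promoter windows that follow are shown because Slc16a1 was higher in all 6 fusion groups, while Hk2, Pgk1 and Ldha are those higher in G-NHX9-midi-21FGAA than in G-NHX9-midi whose windows hold ACGTG and overlap no annotated exon. Slc2a1, Slc16a3 and Pkm were also higher in that comparison and hold ACGTG, and their windows are not shown because they overlap an exon of GENCODE M21. ACGTG, the core shared by hypoxia response elements and by the E-box CACGTG read by MYC and its relatives, was searched on both strands in the 250 bases before each RefSeq start (GRCm38.p6). Of 32851 promoters, 16.6% held ACGTG and 6.02% held CACGTG, and every CACGTG also holds ACGTG. Of the 9 members with a promoter entry, 7 held ACGTG in at least 1 window, while Hk1 and Pfkp had no match. This count is per gene, whereas the shares over all promoters are per window, so they are not like measures. Hk1, Pkm and Ldha each had 2 windows, and 1 window of Pkm and 1 of Ldha held no ACGTG. Slc2a3 had no entry. Capitals mark ACGTG or its reverse complement, and positions count back from the start. The windows lie at chr3:104638444-104638489 on the plus strand for Slc16a1, at chrX:106186930-106186993 on the plus strand for Pgk1, at chr7:46845639-46845794 on the plus strand for Ldha and at chr6:82774482-82774700 on the minus strand for Hk2.
Slc16a1: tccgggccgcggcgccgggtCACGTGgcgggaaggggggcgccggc
Pgk1: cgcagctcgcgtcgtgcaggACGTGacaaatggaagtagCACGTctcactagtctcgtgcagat
Ldha: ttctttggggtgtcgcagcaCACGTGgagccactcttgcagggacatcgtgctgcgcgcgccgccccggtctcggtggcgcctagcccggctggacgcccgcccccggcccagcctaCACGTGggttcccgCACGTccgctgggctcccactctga
Hk2: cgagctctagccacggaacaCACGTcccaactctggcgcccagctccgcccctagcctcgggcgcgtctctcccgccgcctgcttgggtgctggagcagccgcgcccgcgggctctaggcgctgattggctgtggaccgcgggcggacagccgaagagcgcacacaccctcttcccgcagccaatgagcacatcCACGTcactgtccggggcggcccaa
The Slc16a1 window held 1 CACGTG, at -200, and the Ldha window held 2, at -145 and -48. The Pgk1 and Hk2 windows held ACGTG without the longer palindrome. These matches describe letters in a window and no binding was measured.

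Per exon length, the later enzymes of glycolysis were the most abundant members. Mean levels over all libraries were 406 RPKM (CPM per kilobase of exon) for Pkm, 305 RPKM for Ldha and 282 RPKM for Pgk1. The carriers and the upper enzymes were lower, from 41.6 RPKM for Slc16a3 and 40.6 RPKM for Slc2a1 to 15.9 RPKM for Slc16a1. The group explained 78.3% of the variance of log2 CPM for Slc2a3, 74.6% for Slc16a1 and 70.3% for Ldha, against 34.6% for Pfkp and 39% for Pkm. The median over the 10308 tested genes averaging 5 CPM or more was 47.6%.

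**Figure D1:**
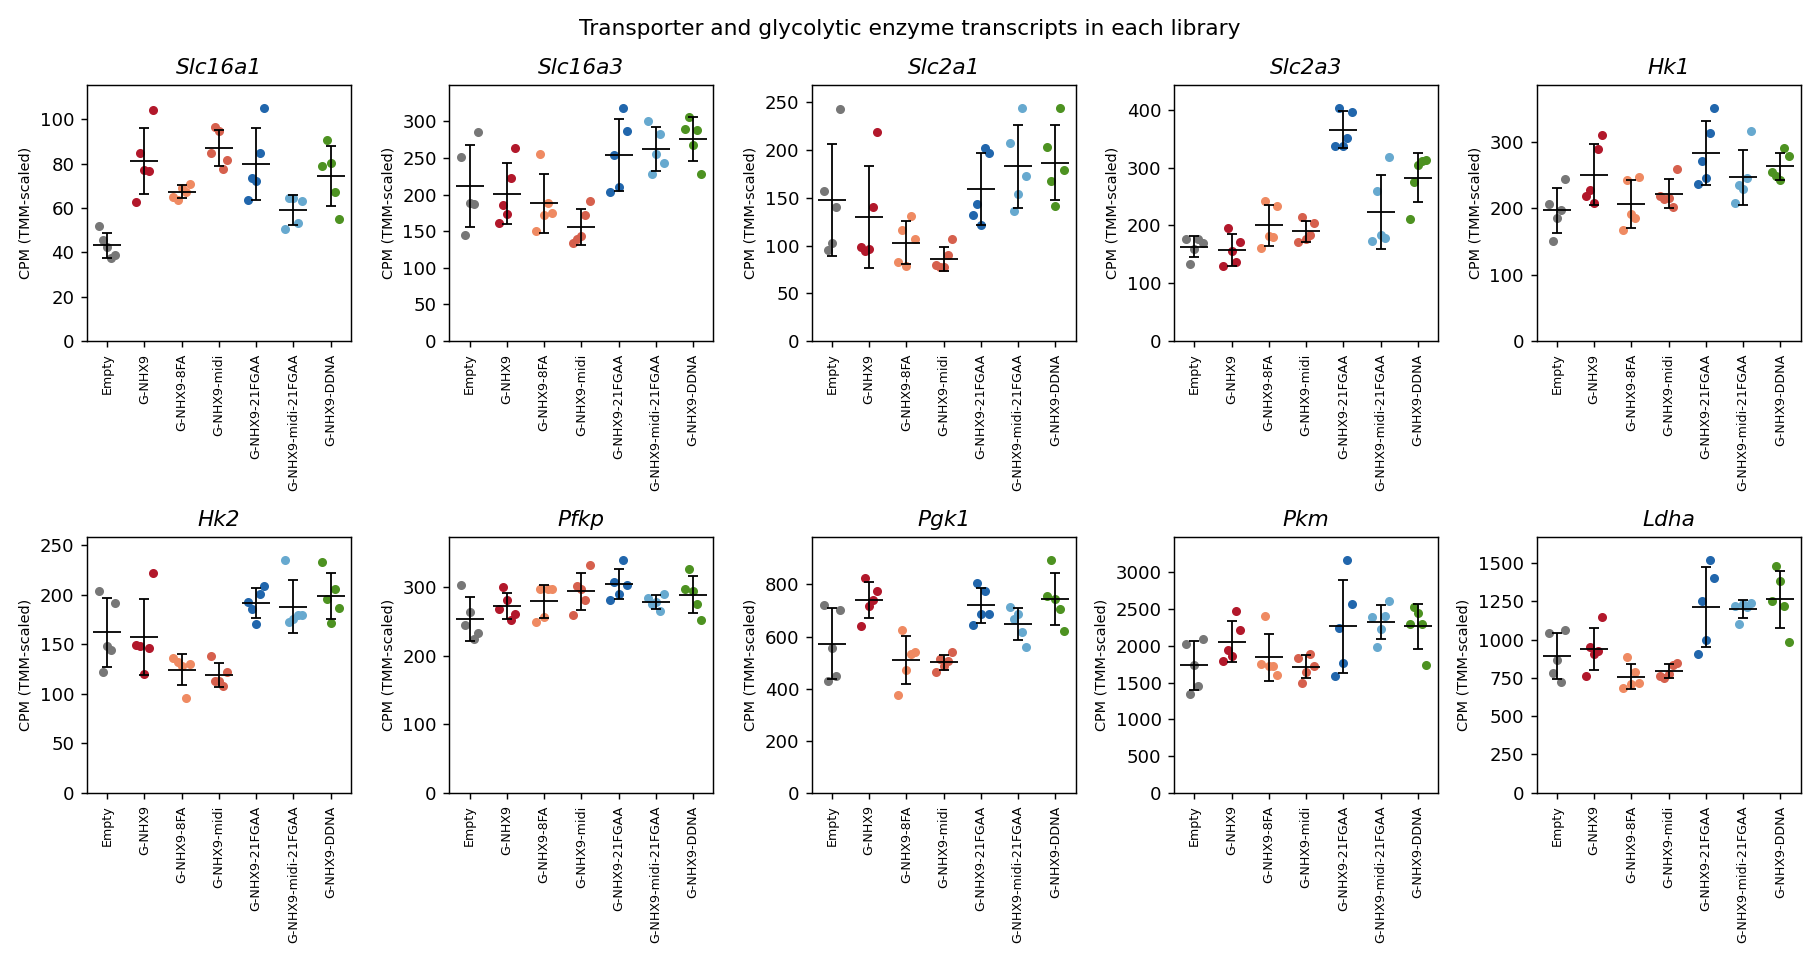
TMM-scaled CPM (vertical axis, from 0) of each of the 10 genes in each of 35 libraries (points), by group (horizontal axis), with the mean and SD of 5 libraries. All Slc16a1 values of G-NHX9, G-NHX9-8FA, G-NHX9-midi, G-NHX9-21FGAA and G-NHX9-DDNA lie above the highest Empty library at 51.7 CPM, and all Slc2a3 values of G-NHX9-21FGAA lie above those of every other group.

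Slc16a1 was higher than in Empty in all 6 fusion groups. It was counted at 51.7, 45.5, 42.2, 37.6 and 38.9 CPM in the Empty libraries. In G-NHX9 it was counted at 62.9, 84.9, 77.2, 76.6 and 104 CPM. These ranges do not overlap. The change was 0.91 ± 0.13 on the log2 scale (SE, n = 5 against 5), or 1.88-fold, with an adjusted p of 1.8e-06 by edgeR. In G-NHX9-midi, the group with the highest mean, it was counted at 84.6, 96.3, 94.8, 77.7 and 81.6 CPM, a change from Empty of 1.01 ± 0.13 (adjusted p = 1.7e-07). Changes from Empty were 0.89 in G-NHX9-21FGAA, 0.78 in G-NHX9-DDNA and 0.64 in G-NHX9-8FA, all with groups that did not overlap. G-NHX9-midi-21FGAA had the smallest change, at 0.45 ± 0.13 (adjusted p = 0.015), with libraries at 50.7, 64.4, 64.6, 53.2 and 63.2 CPM, of which the lowest lies under the highest Empty library. This call was lost when the 32 libraries labelled 8 weeks were used alone. In the order of group means, from Empty at 43.2 CPM to G-NHX9-midi at 87 CPM, each group overlapped its neighbours.

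Against G-NHX9, no mutant changed Slc16a1 past the threshold. The estimates were -0.27 for G-NHX9-8FA, 0.1 for G-NHX9-midi, -0.02 for G-NHX9-21FGAA and -0.12 for G-NHX9-DDNA, each with an SE of 0.13.

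The other lactate carrier, Slc16a3, which is known for lactate export from glycolytic cells, had another pattern. It was counted at 251, 145, 189, 187 and 286 CPM in Empty, and at 134, 139, 143, 172 and 191 CPM in G-NHX9-midi, where it was lower by edgeR (log2 change -0.44 ± 0.16, adjusted p = 0.03). The groups overlapped, and the call was lost in 5 of the 10 fits that left out 1 library. In G-NHX9-DDNA it was counted at 290, 306, 268, 288 and 228 CPM, 0.46 ± 0.16 above G-NHX9 (adjusted p = 0.042), a call lost in 7 of 10 such fits. No other fusion group differed from Empty past the threshold.

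Carrier chaperones did not follow the carriers across the groups. Emb, the embigin chaperone, was higher than in Empty in G-NHX9 (0.44), G-NHX9-8FA (0.37) and G-NHX9-midi (0.56) and lower in G-NHX9-21FGAA (-0.53), G-NHX9-midi-21FGAA (-0.65) and G-NHX9-DDNA (-0.41), each past the threshold. Bsg, the basigin chaperone of both carriers, was lower in G-NHX9-8FA (-0.28, adjusted p = 0.017) and G-NHX9-midi (-0.36, adjusted p = 0.0012). Slc16a7, a further monocarboxylate carrier at 13.1 CPM in Empty, was lower in G-NHX9 (-1.02), G-NHX9-8FA (-0.62), G-NHX9-midi (-0.61), G-NHX9-21FGAA (-0.77) and G-NHX9-DDNA (-0.65).

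Of the glucose carriers, Slc2a3 separated the groups most. It was counted at 177, 134, 159, 176 and 170 CPM in Empty and at 129, 196, 156, 136 and 171 CPM in G-NHX9. In G-NHX9-21FGAA it was counted at 338, 403, 338, 352 and 397 CPM, above every library of every other group. The change from Empty was 1.16 ± 0.15 (adjusted p = 1.7e-06) and from G-NHX9 1.22 ± 0.15 (adjusted p = 2.1e-07), or 2.32-fold. In G-NHX9-DDNA it was counted at 211, 275, 305, 311 and 313 CPM, 0.79 ± 0.15 above Empty (adjusted p = 0.00076) and 0.85 ± 0.15 above G-NHX9 (adjusted p = 5.8e-05), again with no overlap. G-NHX9-midi-21FGAA was uneven, with 2 libraries at 259 and 319 CPM and 3 between 173 and 184 CPM. Its change of 0.45 from Empty (adjusted p = 0.034) was lost in 4 of 10 fits without 1 library. Below G-NHX9-21FGAA, groups neighbouring in the order of means overlapped.

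Slc2a1, the carrier of basal uptake, was counted at 157, 95.4, 103, 140 and 243 CPM in Empty, with a wide spread. In G-NHX9-midi it was counted at 79.6, 77.1, 77.9, 89.6 and 107 CPM, a log2 change of -0.77 ± 0.23 (adjusted p = 0.0082). The call was lost without Empty replicate 5 and in the libraries labelled 8 weeks, which leave out Empty replicates 4 and 5. In G-NHX9 the values were 98.7, 94.5, 96.4, 140 and 219 CPM. Replicates 4 and 5 were the 2 highest in G-NHX9, G-NHX9-midi and G-NHX9-21FGAA. In the main fit no other fusion group differed from Empty past the threshold. The change in G-NHX9-8FA (-0.52, adjusted p = 0.1) was called with the replicate number as a block and with a score of sex-linked transcripts. It was also called without Empty replicate 2. The change in G-NHX9-DDNA (0.34) was called only in the libraries numbered 1 to 3. The annotation has an antisense gene, Gm12868, over an exon of Slc2a1.

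The hexokinases did not move alike. Hk1 was higher than in Empty in G-NHX9 (0.35, adjusted p = 0.0491), G-NHX9-21FGAA (0.53, adjusted p = 0.0041) and G-NHX9-DDNA (0.42, adjusted p = 0.031). Hk2 was lower in G-NHX9-8FA (-0.38, adjusted p = 0.038) and G-NHX9-midi (-0.44, adjusted p = 0.0093). Hk2 was counted at 204, 122, 148, 144 and 192 CPM in Empty and at 138, 113, 113, 108 and 122 CPM in G-NHX9-midi, with overlapping groups. The Hk1 call in G-NHX9 held in 4 of 10 fits without 1 library, against all 10 in G-NHX9-21FGAA. Hk1 shares exonic bases with an antisense gene, Hk1os, and Pfkp with Pitrm1 on the opposite strand, and no source used here says whether counting used strand, so reads of each pair cannot be told apart. Pfkp had the smallest range of group means of the 10 genes, 0.27 on the log2 scale. It was higher in G-NHX9-midi (0.21, adjusted p = 0.041) and G-NHX9-21FGAA (0.26, adjusted p = 0.019), and the first of these calls held in 3 of 10 fits without 1 library.

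Later in the route, Pgk1 separated G-NHX9 from its 8FA and midi forms. Pgk1 was counted at 639, 823, 719, 742 and 773 CPM in G-NHX9. It was counted at 377, 624, 473, 534 and 541 CPM in G-NHX9-8FA and at 462, 513, 488, 504 and 539 CPM in G-NHX9-midi. Every library of both groups lay below the lowest G-NHX9 library. The changes were -0.54 ± 0.13 (adjusted p = 0.0043) and -0.56 ± 0.13 (adjusted p = 0.0019), and neither call was lost in any alternative or left-out fit. Against Empty, Pgk1 was higher in G-NHX9 (0.37, adjusted p = 0.026) and G-NHX9-DDNA (0.38, adjusted p = 0.038), calls that held in 5 and 4 of 10 fits without 1 library.

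Ldha was higher than in Empty in G-NHX9-21FGAA (0.44 ± 0.13, adjusted p = 0.011), G-NHX9-midi-21FGAA (0.43 ± 0.13, adjusted p = 0.022) and G-NHX9-DDNA (0.5 ± 0.13, adjusted p = 0.0082). In this order, the calls held in 9, 8 and 10 of 10 fits without 1 library and in 8, 8 and 10 of 10 alternatives. The first was lost without G-NHX9-21FGAA replicate 4, and the second without Empty replicate 2 or 4. Ldha was counted at 1044, 785, 864, 725 and 1055 CPM in Empty and at 1224, 1099, 1231, 1210 and 1242 CPM in G-NHX9-midi-21FGAA, which do not overlap. It was also higher than in G-NHX9 in G-NHX9-DDNA (0.43, adjusted p = 0.015) and G-NHX9-21FGAA (0.37, adjusted p = 0.044), the latter held in 3 of 10 fits without 1 library. Pkm did not pass the threshold in the comparisons with Empty or G-NHX9. The estimates of Pkm against Empty were 0.39 in G-NHX9-21FGAA (adjusted p = 0.059), 0.42 in G-NHX9-midi-21FGAA (adjusted p = 0.0532) and 0.38 in G-NHX9-DDNA (adjusted p = 0.079). In G-NHX9-midi-21FGAA against Empty, where replicate numbers paired libraries, Pkm passed with the replicate number as a block (0.42, adjusted p = 0.043) and in 5 of 10 alternatives in all. Processed copies of Ldha and Pgk1 held at most 0.193% of the parent gene's counts in any library. A gene of unknown coding status, Gm49759, overlaps Pkm exons on the same strand.

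The count of members called is given beside the percent of all genes called in the same comparison. Against Empty, 3 of 10 were called in G-NHX9 (32.1% of all genes), 2 in G-NHX9-8FA (26.6%), 5 in G-NHX9-midi (40.5%), 5 in G-NHX9-21FGAA (27.1%), 3 in G-NHX9-midi-21FGAA (16.9%) and 5 in G-NHX9-DDNA (17.2%). Against G-NHX9, 1 was called in G-NHX9-8FA (14.5%), 2 in G-NHX9-midi (19.7%), 2 in G-NHX9-21FGAA (17.2%) and 3 in G-NHX9-DDNA (22.1%). All calls in G-NHX9-21FGAA, G-NHX9-midi-21FGAA and G-NHX9-DDNA, against Empty or against G-NHX9, were toward higher levels, and the 5 in G-NHX9-midi were 2 higher and 3 lower. With the replicate number as a block, where numbers paired libraries, the counts were 5 in G-NHX9-midi-21FGAA against Empty and 5 in G-NHX9-DDNA against G-NHX9, and the shares of all genes called rose to 25.4% and 28.1%. The members gained under the block were Hk1 (0.32, adjusted p = 0.013) and Pkm in the first comparison, and Slc2a1 (0.58, adjusted p = 0.0075) and Hk2 (0.35, adjusted p = 0.017) in the second. Hk2 was also gained in G-NHX9-DDNA against Empty (0.31, adjusted p = 0.04) and at the threshold in G-NHX9-21FGAA against G-NHX9 (0.3). The comparisons with Empty share its 5 libraries and those with G-NHX9 share its 5, so their values stand side by side and are not independent.

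**Figure D2:**
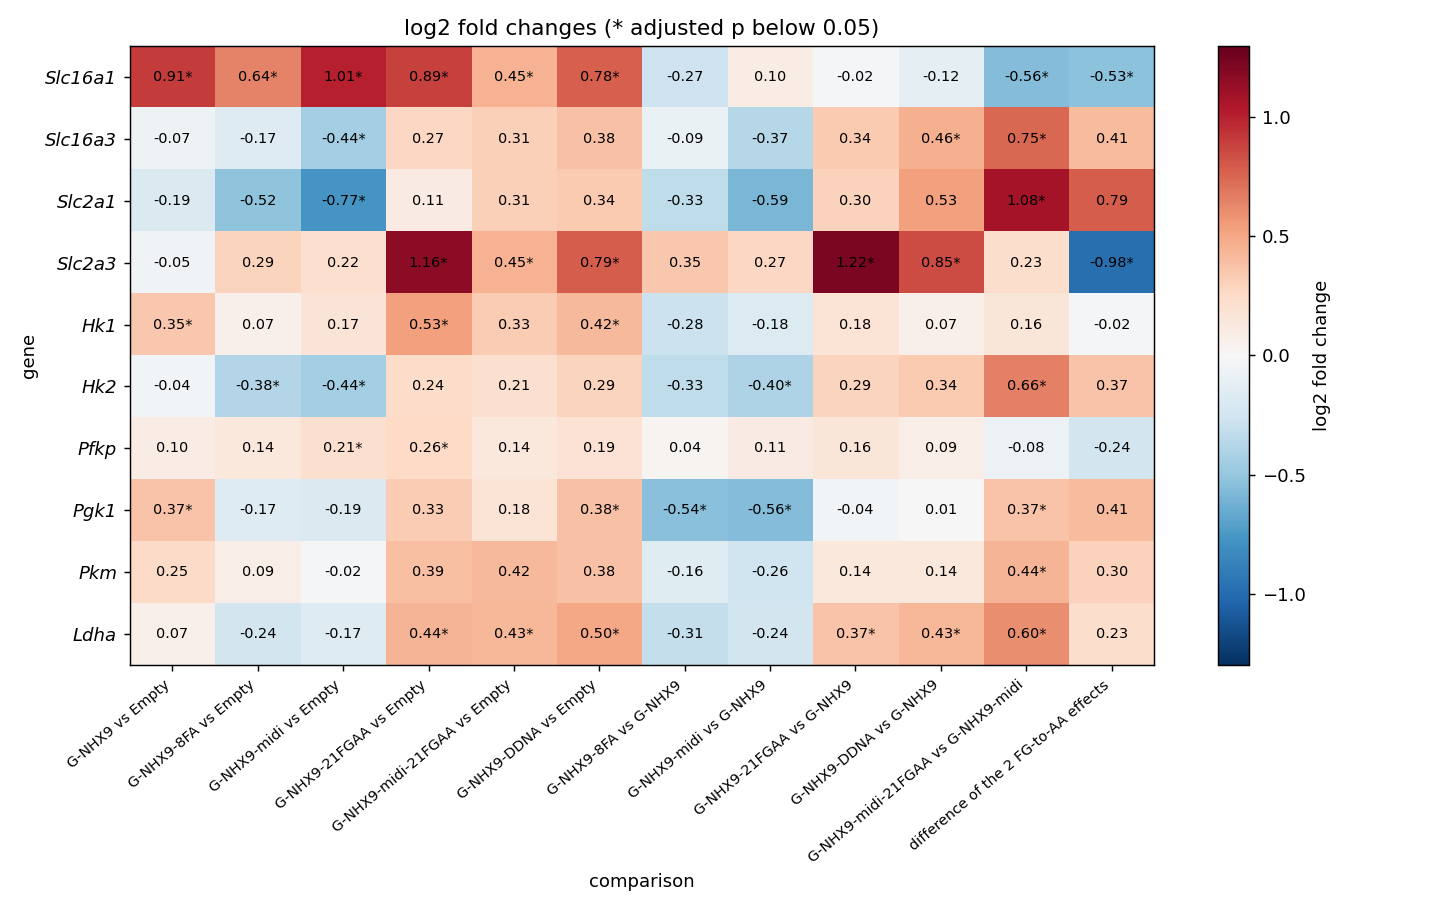
log2 fold changes (colour and numbers) of the 10 genes (rows) in 12 comparisons (columns), with an asterisk for adjusted p below 0.05. The Slc16a1 row is red in all 6 comparisons with Empty, from 0.45 to 1.01, and the column of G-NHX9-midi-21FGAA against G-NHX9-midi holds 6 higher and 1 lower call.

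Removing the FG motifs from the shortened fusion moved 7 of 10 members, 6 higher and 1 lower, where 43.2% of all genes were called. Slc2a1 was higher in G-NHX9-midi-21FGAA than in G-NHX9-midi by 1.08 ± 0.23 (adjusted p = 0.00032), at 208, 136, 154, 244 and 173 CPM. Slc16a3 was higher by 0.75 ± 0.16 (adjusted p = 0.00034), at 301, 228, 256, 283 and 243 CPM. Hk2 was higher by 0.66 ± 0.14 (adjusted p = 0.0002), at 235, 172, 175, 179 and 179 CPM. For each of these carriers and for Hk2 the lowest library lay above the highest of G-NHX9-midi. Ldha (0.6), Pkm (0.44) and Pgk1 (0.37) were also higher with no overlap. Slc16a1 was lower, with a change of -0.56 ± 0.13 (adjusted p = 0.00072), with no overlap. Of these 7 calls, 6 held under every alternative and left-out library, and the Pkm call was lost without G-NHX9-midi replicate 2 (adjusted p = 0.055). Slc2a3, Hk1 and Pfkp did not pass the threshold, at 0.23, 0.16 and -0.08.

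The effect of the FG changes was compared between the full-length and the shortened fusion with an interaction term, for which 12.6% of all genes were called. Of the 10 members, 2 were called. Slc2a3 had an effect of 1.22 in the full-length fusion and 0.23 in the shortened one, a difference of -0.98 ± 0.21 (adjusted p = 0.0013) that was called in every alternative and left-out fit. Slc16a1 had effects of -0.02 and -0.56, a difference of -0.53 ± 0.18 with an adjusted p of 0.0498, called in 6 of 20 fits without 1 library and in 5 of 10 alternatives. For Slc2a1 the difference was 0.79 ± 0.33 and did not pass (adjusted p = 0.12), though it did with the replicate number as a block (0.75, adjusted p = 0.019), and a difference was not shown for the other 7 members.

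**Figure D3:**
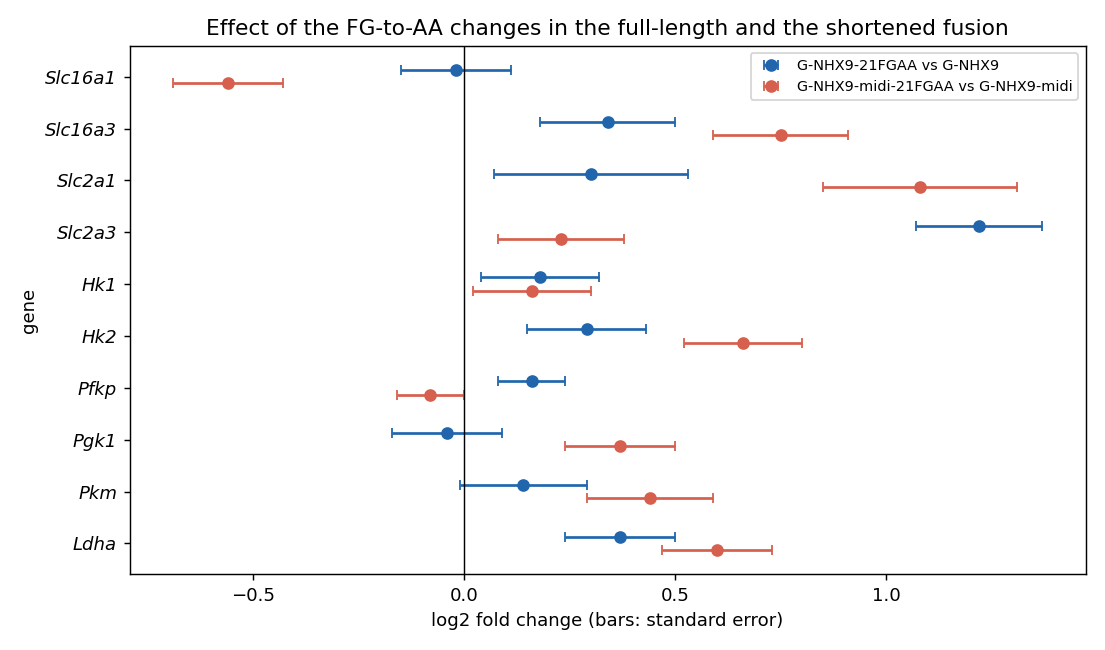
log2 fold changes (horizontal axis, with SE) of the 10 genes (vertical axis) for G-NHX9-21FGAA against G-NHX9 (blue) and G-NHX9-midi-21FGAA against G-NHX9-midi (orange), 5 libraries a group. Slc2a3 lies at 1.22 in the full-length and 0.23 in the shortened fusion, and Slc2a1 at 0.3 and 1.08.

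Of 21 further glycolytic enzymes and isozymes, 19 passed the filter on low counts. Against Empty, 3 were higher and 2 lower in G-NHX9, 1 higher and 6 lower in G-NHX9-8FA, and 2 higher and 8 lower in G-NHX9-midi. By contrast, 5 were higher in G-NHX9-21FGAA, 4 in G-NHX9-midi-21FGAA and 8 in G-NHX9-DDNA, with 0 lower in each. In the same order of 6 groups, 26.3%, 36.8%, 52.6%, 26.3%, 21.1% and 42.1% of the list were called, against 32.1%, 26.6%, 40.5%, 27.1%, 16.9% and 17.2% of all genes. The shares in G-NHX9, G-NHX9-21FGAA and G-NHX9-midi-21FGAA were thus near or below those of all genes. Medians were -0.27 in G-NHX9-midi and 0.35 in G-NHX9-DDNA, against 0.02 and -0.01 over all genes. Between the shortened fusions 13 were higher and 3 lower, or 84.2% of the list against 43.2% of all genes. Tpi1, triose phosphate isomerase, was higher than in Empty in G-NHX9-21FGAA (0.45), G-NHX9-midi-21FGAA (0.46) and G-NHX9-DDNA (0.53). Eno1, the main enolase, was higher in the same groups, by 0.42, 0.47 and 0.56. Gapdh was lower in G-NHX9-midi (-0.37, adjusted p = 0.033). Hk3, the hexokinase of myeloid cells, ran the other way, higher in G-NHX9 (0.38), G-NHX9-8FA (0.47) and G-NHX9-midi (0.57). Pklr, the pyruvate kinase of liver and red cells, was counted at 1.03 ± 0.482 CPM in Empty, 0.0095 ± 0.0131 CPM in G-NHX9-midi and 4.13 ± 2.14 CPM in G-NHX9-midi-21FGAA (SD, n = 5). Bpgm, which makes 2,3-bisphosphoglycerate in red cells, was higher in G-NHX9-DDNA (0.6, adjusted p = 0.037).

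Of 7 tested regulators of glycolytic flux, 2 to 4 were called in each fusion group against Empty. Shares of the list called were 42.9% in G-NHX9, 42.9% in G-NHX9-8FA, 57.1% in G-NHX9-midi, 28.6% in G-NHX9-21FGAA, 42.9% in G-NHX9-midi-21FGAA and 28.6% in G-NHX9-DDNA. In the same order, 32.1%, 26.6%, 40.5%, 27.1%, 16.9% and 17.2% of all genes were called. The share in G-NHX9-21FGAA was thus near that of all genes. Txnip, which promotes removal of glucose carriers from the membrane, was counted at 1350 CPM in Empty and was lower in G-NHX9-21FGAA (-1.37, adjusted p = 0.002), G-NHX9-midi-21FGAA (-1.54, adjusted p = 0.0018) and G-NHX9-DDNA (-1.43, adjusted p = 0.0031). Fbp1, a gluconeogenic phosphatase, was lower in G-NHX9 (-3.22), G-NHX9-8FA (-2.25), G-NHX9-midi (-2.95) and G-NHX9-midi-21FGAA (-1.68). Pfkfb4, a maker of the phosphofructokinase activator, was lower in G-NHX9 (-0.6), G-NHX9-8FA (-0.34), G-NHX9-midi (-0.87) and G-NHX9-21FGAA (-0.33). Tigar, also of this list, was higher in G-NHX9-8FA (0.35) and G-NHX9-midi (0.36). Hif1a was higher than in Empty in G-NHX9 (0.56), G-NHX9-8FA (0.6) and G-NHX9-midi (0.91). Of the 9 genes of the HIF pathway list, 2 were higher and 2 lower in G-NHX9, where 32.1% of all genes were called. In G-NHX9-DDNA 1 was higher and 0 lower, where 17.2% of all genes were called. Among those called lower in some groups were Arnt, Epas1 and Egln1. Arnt was lower in G-NHX9 (-0.42), G-NHX9-8FA (-0.44), G-NHX9-midi (-0.51), G-NHX9-21FGAA (-0.41) and G-NHX9-midi-21FGAA (-0.36). Epas1 was lower in G-NHX9 (-1.43), G-NHX9-8FA (-1.71) and G-NHX9-21FGAA (-1.42), and Egln1 in G-NHX9-8FA (-0.44) and G-NHX9-midi (-0.38). Of 15 non-glycolytic HIF targets tested, 3 were higher and 8 lower in G-NHX9-midi, with Stc2 (1.96) and Vegfa (1.09) higher and Ankrd37 (-1.04) and Bnip3l (-0.91) lower. Myc was higher in G-NHX9 (0.98, adjusted p = 0.00019) and G-NHX9-midi (0.72, adjusted p = 0.0029). Of the remaining lists, mitochondrial pyruvate entry had 2 higher and 4 lower of 12 in G-NHX9-midi, and the pentose phosphate pathway 1 higher and 1 lower of 7, where 40.5% of all genes were called. In the same comparison other glucose carriers had 1 higher and 2 lower of 4, flux regulators 1 and 3 of 7, the HIF pathway 1 and 3 of 9, and the MYC family 1 and 0 of 10. Mpc1, a subunit of the mitochondrial pyruvate carrier, was lower in G-NHX9 (-0.55), G-NHX9-midi (-0.47) and G-NHX9-21FGAA (-0.48).

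**Figure D4:**
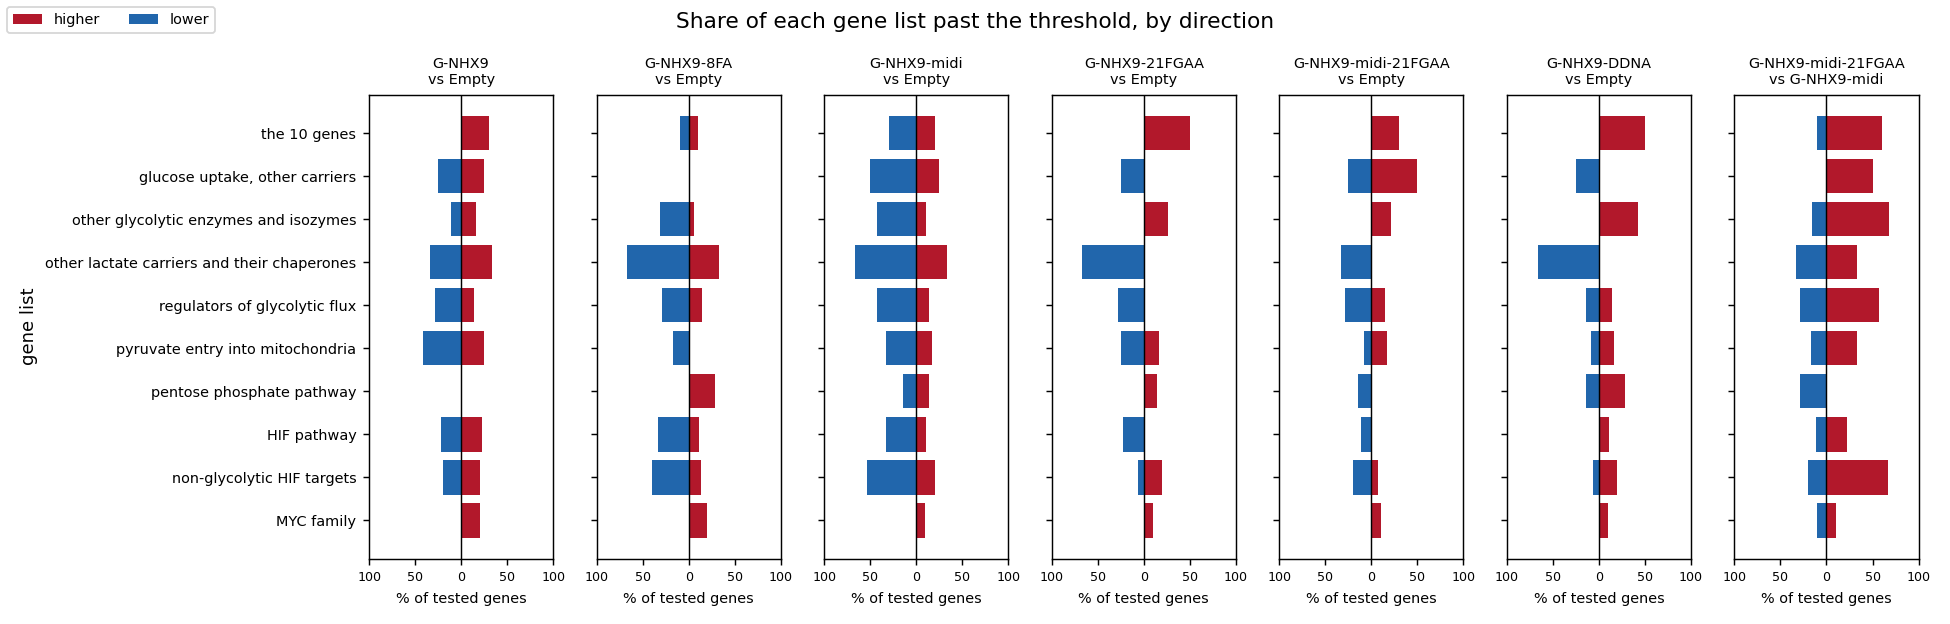
Percent of the tested genes of each list (rows) that were higher (red, right) or lower (blue, left) than the reference in 7 comparisons (panels). Of 19 other glycolytic enzymes, 8 are lower and 2 higher in G-NHX9-midi against Empty, and 13 are higher and 3 lower in G-NHX9-midi-21FGAA against G-NHX9-midi.

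Markers of cell types and of division moved with the same groups, and in bulk RNA fewer cells of a type and less RNA per cell cannot be told apart. The summed level of 15 tested erythroid markers ranged from 365 to 962 CPM in Empty, 154 to 233 CPM in G-NHX9-8FA and 232 to 415 CPM in G-NHX9-midi. It ranged from 748 to 2400 CPM in G-NHX9-21FGAA, 824 to 2180 CPM in G-NHX9-midi-21FGAA and 747 to 2230 CPM in G-NHX9-DDNA. Of these markers, 12 were lower and 1 higher in G-NHX9-midi (40.5% of all genes called) than in Empty. In G-NHX9-21FGAA 11 were higher and 0 lower (27.1%). The median log2 change of the markers was -3.86 in G-NHX9-midi and 1.24 in G-NHX9-21FGAA. In G-NHX9-midi the summed level fell less than this median. The groups with Ldha higher than in Empty had the highest mean sums of erythroid, mast cell and basophil, eosinophil and cell cycle markers. Their mast cell and basophil means included 4040 CPM in G-NHX9-21FGAA and 3330 CPM in G-NHX9-DDNA. Whether any of these shifts bears on Ldha was not tested. The 10 cell cycle markers summed to 946 to 1800 CPM in Empty, and all 10 were higher in G-NHX9-21FGAA, G-NHX9-midi-21FGAA and G-NHX9-DDNA, 9 in G-NHX9 and 4 in G-NHX9-midi. In the same order of groups, 27.1%, 16.9%, 17.2%, 32.1% and 40.5% of all genes were called. The 4 in G-NHX9-midi were thus near the share of all genes. Mast cell and basophil markers averaged 2710 CPM in Empty, 781 CPM in G-NHX9-midi and 5100 CPM in G-NHX9-midi-21FGAA. Eosinophil markers averaged 1550, 67.8 and 1570 CPM in the same groups, and megakaryocyte markers 1180, 214 and 1160 CPM. Neutrophil granule markers averaged 11900 CPM in Empty and 26800 CPM in G-NHX9-8FA, with 9 of 14 higher and 0 lower, and S100a9 and S100a8, the most abundant, at 4010 and 3090 CPM in Empty and 10900 and 8410 CPM in G-NHX9-8FA. Macrophage and monocyte markers averaged 7880 and 4910 CPM in these groups, with 3 of 12 lower and 1 higher. Ctss, the most abundant of them, went from 4670 to 2690 CPM and held most of that difference. In this comparison 26.6% of all genes were called, near the share of the macrophage and monocyte list. The sum of that list averaged 3670 to 5460 CPM in the other fusion groups. No fusion library reached 6960 CPM, the sum in the lowest Empty library. Stem and progenitor markers averaged 337 CPM in Empty and 693 CPM in G-NHX9, and lymphoid markers 24 and 52.7 CPM. In the other fusion groups, stem and progenitor markers averaged 397 to 613 CPM and lymphoid markers 24.6 to 46.4 CPM. The part of these shifts in the values of the 10 genes was not tested.

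Across the 35 libraries, log2 CPM of Slc16a3 and Slc2a1 had a Pearson r of 0.91, Slc16a3 and Ldha of 0.90, and Pkm and Ldha of 0.85. Slc16a1 had r of -0.18 with Slc2a1, -0.06 with Hk2 and -0.04 with Slc16a3, against 0.6 with Pfkp, 0.43 with Hk1 and 0.3 with Slc2a3. Pfkp was likewise near 0 with Slc2a1 (0.03) and Hk2 (0.08). These values describe libraries that share groups and replicate numbers. Among 10298 other genes averaging 5 CPM or more, those most like Slc16a1 were Fkbp4 (r = 0.967), Ppat (0.954) and Ctps (0.933). The genes most like Ldha were Tpi1 (0.969), Pfkl (0.944) and Xpnpep1 (0.923), and Slc2a1 was most like Gapdh (0.925). Pgk1 was most like Bnip3 (0.915), Slc16a3 like Pgm2 (0.908), Hk2 like Abhd18 (0.924), Hk1 like Nup50 (0.906), Pkm like Tuba1a (0.9) and Slc2a3 like Serpine2 (0.859). Pfkp was most like the histone gene Hist2h3b (0.822), followed by 2 more histone genes.

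**Figure D5:**
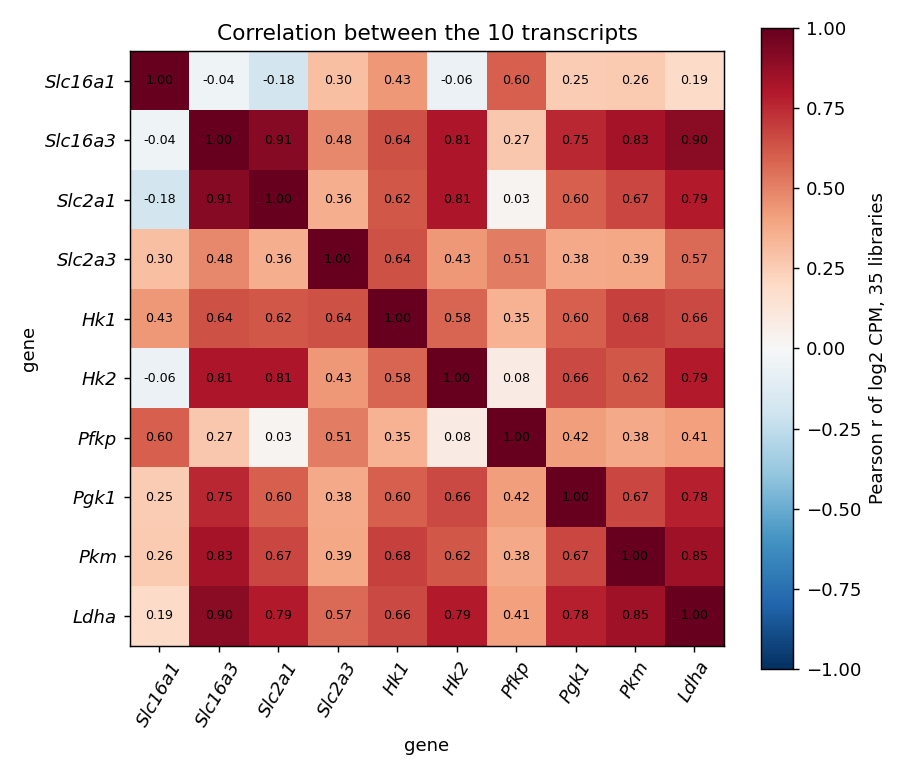
Pearson r of log2 CPM over 35 libraries between each pair of the 10 genes (rows and columns, colour from -1 to 1). The Slc16a1 row is near 0 or below with Slc16a3, Slc2a1 and Hk2 and reaches 0.6 with Pfkp, while Slc16a3, Slc2a1, Hk2 and Ldha lie between 0.79 and 0.91 with each other.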

How the data were processed

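The authors deposited raw counts of reads on 49671 genes for 35 mouse libraries, as whole numbers without normalization. Libraries were stranded total RNA. The submitters' processing notes name STAR 2.7.0d, HTSeq 0.11.2, DESeq2 and mm10, with no settings. Identifiers were matched to GENCODE M21 without version for 99.5% of genes, and promoters come from RefSeq (GRCm38.p6).

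The analysis used edgeR 4.0.16 (limma 3.58.1) in R 4.3.3. filterByExpr with the 7 groups kept 17166 genes. Libraries were scaled by TMM, and 1 quasi-likelihood model with a mean for each group was fitted to all 35 libraries. Each of 12 comparisons was adjusted by Benjamini-Hochberg over all genes, and 0.05 was the threshold. TMM also scaled the CPM, and log2 CPM used a prior count of 2. DESeq2 1.42.0 and the other alternatives are given in the closing section. The code was tested on simulated data. Figures used Python 3.11.15 and matplotlib 3.10.9.

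The 10 genes, the lists and the tests were chosen with earlier results of these data known. Genes named beyond the 10 were drawn from listed genes past the threshold against Empty with a mean of at least 5 CPM. Up to 4 by size per list and comparison qualified, and not all that qualified are named. Hif1a, Myc, Hk3, Pklr, Bpgm, Gapdh, Txnip and Bsg were named in any case. Further genes were named from the 3 most correlated with each member. The labels number the libraries of a group from 1 to 5. The mean correlation of deviations from group means was 0.232 for same-numbered libraries and -0.057 for the rest. The replicate number held a share of 0.61 of the within-group variance of log2 CPM for Hk1, 0.57 for Slc2a1, 0.46 for Slc2a3 and 0.42 for Hk2. That share was 0.07 to 0.18 for the other members. The main tests did not use the number. Each of the 5 pairs was over 0.1 in 5 of 11 comparisons (G-NHX9, G-NHX9-midi-21FGAA and G-NHX9-DDNA against Empty, G-NHX9-21FGAA and G-NHX9-DDNA against G-NHX9), where numbers were taken to pair libraries; a replicate block then gave 3, 5, 6, 3 and 5 members called.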

Additional observations from a re-analysis of the deposited data

Results flagged for a closer look

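In 5 of 70 groups of 5 libraries, 1 library of a member stood apart from the others by Dixon's test, and chance alone gives about 1 in 20. Hk2 was at 222 CPM in G-NHX9 replicate 5 against 149 CPM in the next library, with a gap of 0.714 of the range. Hk2 was at 96 CPM in G-NHX9-8FA replicate 4, next to 128 CPM (0.817), and at 235 CPM in G-NHX9-midi-21FGAA replicate 1, next to 179 CPM (0.887). Pkm was at 2404 CPM in G-NHX9-8FA replicate 2, next to 1745 CPM (0.819). Ldha was at 1099 CPM in G-NHX9-midi-21FGAA replicate 2, next to 1210 CPM (0.78).

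The effect of the FG changes differed between the full-length and the shortened fusion, by the interaction term in edgeR, for Slc2a3 (log2 difference -0.98, adjusted p = 0.0013) and Slc16a1 (-0.53, adjusted p = 0.0498). Slc16a1 was called in 6 of 20 fits without 1 library and in 5 of 10 alternatives.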

How the results depend on the processing

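Of 40 calls of a member in a comparison, 20 held under each of 10 alternatives and each left-out library, among them Slc16a1 in 5 of 6 fusion groups against Empty and Slc2a3 in G-NHX9-21FGAA and G-NHX9-DDNA. No call changed sign. Counts of members called moved as follows, and the cause was not tested. The share of all genes called, 12.6% to 43.2% over the 12 comparisons, moved as well, to 8.33% to 43% in the libraries labelled 8 weeks, 8.04% to 38.8% in those numbered 1 to 3, 4.61% to 21.8% with no filter and 20% to 51.2% with the replicate block. In the 32 libraries labelled 8 weeks, an alternative chosen after seeing the data, counts were 1 for G-NHX9-8FA, 2 for G-NHX9-midi and 0 for G-NHX9-midi-21FGAA (8.33% of all genes) against Empty, 2 for G-NHX9-8FA and 1 for G-NHX9-21FGAA against G-NHX9, and 1 for the interaction. In the libraries numbered 1 to 3, left after removing those numbered 4 and 5 because Slc2a1 was high in them, and so also chosen after seeing the data, counts against Empty were 1 for G-NHX9, 1 for G-NHX9-8FA, 3 for G-NHX9-midi, 3 for G-NHX9-21FGAA, 1 for G-NHX9-midi-21FGAA and 8 for G-NHX9-DDNA. Against G-NHX9 they were 1 for G-NHX9-midi, 1 for G-NHX9-21FGAA and 5 for G-NHX9-DDNA. With library totals without TMM, which moved the median log2 change of all genes to between -0.122 and 0.186 and the share of higher calls in G-NHX9 against Empty from 52.5% to 75.4%, counts against Empty in the same order were 5, 1, 3, 9, 6 and 9, and against G-NHX9 4 for G-NHX9-8FA and 1 for G-NHX9-21FGAA, with 1 for the interaction. With no filter on low counts, they were 1 for G-NHX9, 1 for G-NHX9-8FA, 3 for G-NHX9-midi and 3 for G-NHX9-DDNA against Empty, 1 for G-NHX9-midi and 1 for G-NHX9-21FGAA against G-NHX9, and 1 for the interaction. Fitting only the groups compared gave 1, 1, 3 and 3 for G-NHX9, G-NHX9-8FA, G-NHX9-midi and G-NHX9-21FGAA against Empty, and 1 and 1 for G-NHX9-midi and G-NHX9-21FGAA against G-NHX9. A score of sex-linked transcripts gave 5 for G-NHX9-midi-21FGAA against Empty and 1 for G-NHX9-midi against G-NHX9, and RLE size factors gave 1 for the interaction. The replicate block gave 5 for G-NHX9-midi-21FGAA against Empty, 4 for G-NHX9-8FA and 5 for G-NHX9-DDNA against G-NHX9, where the shares of all genes went from 16.9%, 14.5% and 22.1% to 25.4%, 23% and 28.1%, and moved no other count by over 1.5 times. DESeq2 and a minimum mean of 1 CPM moved no count by over 1.5 times.

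Leaving out 1 library gave 1 to 3 for G-NHX9 against Empty (lowest without Empty replicates 2, 3 or 4 or G-NHX9 replicate 5), 1 to 3 for G-NHX9-8FA (lowest without Empty replicates 1 or 5 or G-NHX9-8FA replicate 4), 2 to 5 for G-NHX9-midi (lowest without Empty replicate 5), 3 to 7 for G-NHX9-21FGAA (lowest without its replicate 4), 1 to 5 for G-NHX9-midi-21FGAA (lowest without Empty replicate 2, highest without Empty replicate 5) and 3 to 8 for G-NHX9-DDNA (lowest without Empty replicates 2, 3 or 4, highest without Empty replicate 1). Against G-NHX9 it gave 1 to 2 for G-NHX9-8FA, 1 to 3 for G-NHX9-midi, 1 to 4 for G-NHX9-21FGAA and 2 to 5 for G-NHX9-DDNA, the last 2 highest without G-NHX9 replicate 5. It gave 6 to 7 between the shortened fusions and 1 to 2 for the interaction. Each member had at least 1134 counts in every library, so counting error was small beside the spread between libraries.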
